A study of Danio rerio with 6 samples.

Results

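The genes described here were counted in every library of previtellogenic (PV) zebrafish ovarian follicles and in no library of primary growth (PG) follicles. The genes were selected on their raw counts, which had to be 1 or more in each of 3 PV libraries and 0 in each of 3 PG libraries, with fsta and bmp2a left out by name. Of 31540 genes in the count table, 232 were chosen in this way. Because these counts chose the genes, the PV and PG values below are a description of them and carry no test. All follicles came from wild-type (WT) fish of the AB strain, with no treatment. PV follicles carry cortical alveoli and a continuous follicle cell layer, whereas PG follicles are smaller, transparent and at the preceding stage, and both were separated from dispersed ovaries by sieving. Each library held RNA from pooled ovaries of 3 fish, and each of 3 groups of fish gave both PV and PG follicles. That libraries of the same number came from the same group of fish is not stated.

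The fish ovarian follicle is an oocyte wrapped in granulosa cells, with theca cells, connective tissue and vessels outside them. Leaving the primary growth phase, known as follicle activation, has been taken as the entry into gonadotropin-dependent growth. The paper describes this view as revised by recent genetic data. The follicle cells then multiply and exchange signals with the oocyte. According to the paper, follicle growth in fish, above all after the primary growth phase, is mostly that of the oocyte. Somatic cells and the oocyte were sequenced together here, as whole follicles.

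The libraries differed in depth, and the rule depends on it. The PV libraries held 15412764 to 24603033 counts each and the PG libraries 14492086 to 36603108, for summed totals of 62552553 and 80138618 counts. A count of 0 in all PG libraries allows up to 3 counts, or 3.74e-06% of the summed PG counts, and this limit covers counting error only. Of 1896 genes with counts in at least 1 PV library and none in PG libraries, 1229 had counts in 1 PV library, 433 in 2 and 234 in all 3, of which 232 remained after the 2 named exclusions. The opposite rule, counts in every PG library and none in any PV library, was met by 60 genes. With every library thinned to the total of the smallest, the expected numbers were 269 genes for PV and 52 for PG, and an expected 209 of the 269 were among the 232. Thinning used raw totals. By the scaled library sizes used below, the PV libraries together were the larger, with 7.22e+07 against 6.94e+07 for PG. The 2 expected numbers are not corrected for that scaling. In bulk libraries of this kind, fewer cells of a type and less RNA per cell cannot be told apart.

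The levels were low throughout. Over the 3 PV libraries the genes had 3 to 135 counts in all, with a median of 19 and quartiles of 12 and 31. Their counts came to 5766 in total, and the 30 genes with the most counts held 36.0% of them. Of the 232 genes, 6 had at least 100 counts, 21 had at least 50, 66 had at least 30, and 43 had fewer than 10. Among the 60 genes of the opposite rule the highest sum was 54 PG counts and the median 14, and 18.3% of them reached 30 counts, compared with 28.4% of the 232. The 3 PV libraries took similar shares. The 232 genes together amounted to 80.1, 87.2 and 74.6 CPM (counts per 1000000 counts of a library) in PV replicates 1, 2 and 3, with library sizes scaled by the trimmed mean of M values (TMM). After division by library totals, PV replicate 2 was the highest for 103 genes, PV replicate 1 for 65 and PV replicate 3 for 64. The minimum of 1 count weighs most in PV replicate 2, the smallest PV library, and its part in this was not tested.

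**Figure D1:**
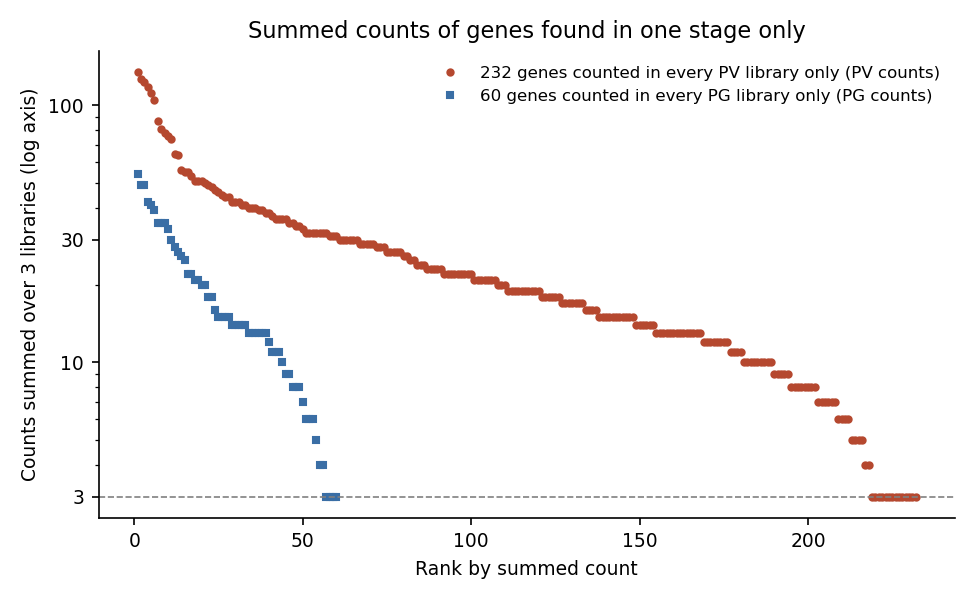
Counts summed over the 3 libraries of a stage (log axis) against rank, for 232 genes counted in every PV library and no PG library (circles) and for 60 genes with the opposite pattern (squares). The dashed line marks 3 counts, and the PV genes reach 135 counts against 54 for the PG genes.

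The gene with the most counts was slc6a1b, which encodes a transporter of the GABA transporter family. It had 51, 39 and 45 counts in PV replicates 1 to 3 and 0 in every PG library, or 1.91 ± 0.243 CPM in PV follicles (SD, n = 3). Set against 3 counts summed over the PG libraries (0.0432 CPM), its level pooled over the PV libraries was at least 43.2-fold higher. This bound and those below take the PV counts as observed, so they cover counting error in the PG libraries only. Nor do they allow for the choice of the genes on 0 PG counts, so they are descriptions and carry no test. They would be smaller where 1 fragment gives 2 counts, as it can in paired-end libraries. The transcription regulator zbtb7c had 46, 34 and 47 PV counts and a level of 1.78 ± 0.153 CPM, at least 40.7-fold above that floor. Its 3 PV libraries lay close together. An uncharacterized gene, ENSDARG00000097726, the third in the plot of levels by library, had 66, 24 and 33 PV counts, and PV replicate 1 stood above the other two.

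Secreted factors and an adaptor came next. The CCN family matricellular protein gene wisp1b had 52, 27 and 39 PV counts (1.62 ± 0.177 CPM, at least 37.8-fold higher), and serpinf1, which encodes an anti-angiogenic serpin in mammals, had 54, 33 and 25 (1.57 ± 0.52 CPM, at least 35.9-fold higher). GRB14, an adaptor that binds the insulin receptor in mammals, had 47, 34 and 24 PV counts (1.49 ± 0.504 CPM). For both serpinf1 and GRB14, PV replicate 3 was the lowest. The gene vwde, for a secreted protein with von Willebrand factor D and EGF domains, had 54, 19 and 14 PV counts, so that its lower bound of 27.9-fold dropped to 17.5-fold without PV replicate 1.

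Several genes with somewhat fewer counts had similar raw counts in the 3 PV libraries. The uncharacterized si:dkey-84o3.3 had 33, 21 and 27 PV counts (1.13 ± 0.069 CPM), and obscna, for the giant sarcomere protein obscurin, had 26, 25 and 27 (1.12 ± 0.253 CPM). The Golgi ceramidase gene acer2 had 24, 29 and 21 PV counts, which differed by 2.02 times between libraries after division by library totals, and ldb2b, for a cofactor that bridges LIM-domain transcription factors, had 24, 20 and 21. All of these were counted 20 times or more in each PV library. By contrast, ttc6 had 42, 11 and 23 PV counts and myct1a had 22, 4 and 29, with the libraries of 1 stage far apart. Among the 66 genes with at least 30 PV counts, the ratio of the highest to the lowest PV library after division by library totals had a median of 1.95, and it ran from 1.13 for si:ch211-236p5.2 to 6.34 for sdcbp. It was over 5 for 3 of them, sdcbp, rapgefl1 and ENSDARG00000089957.

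**Figure D2:**
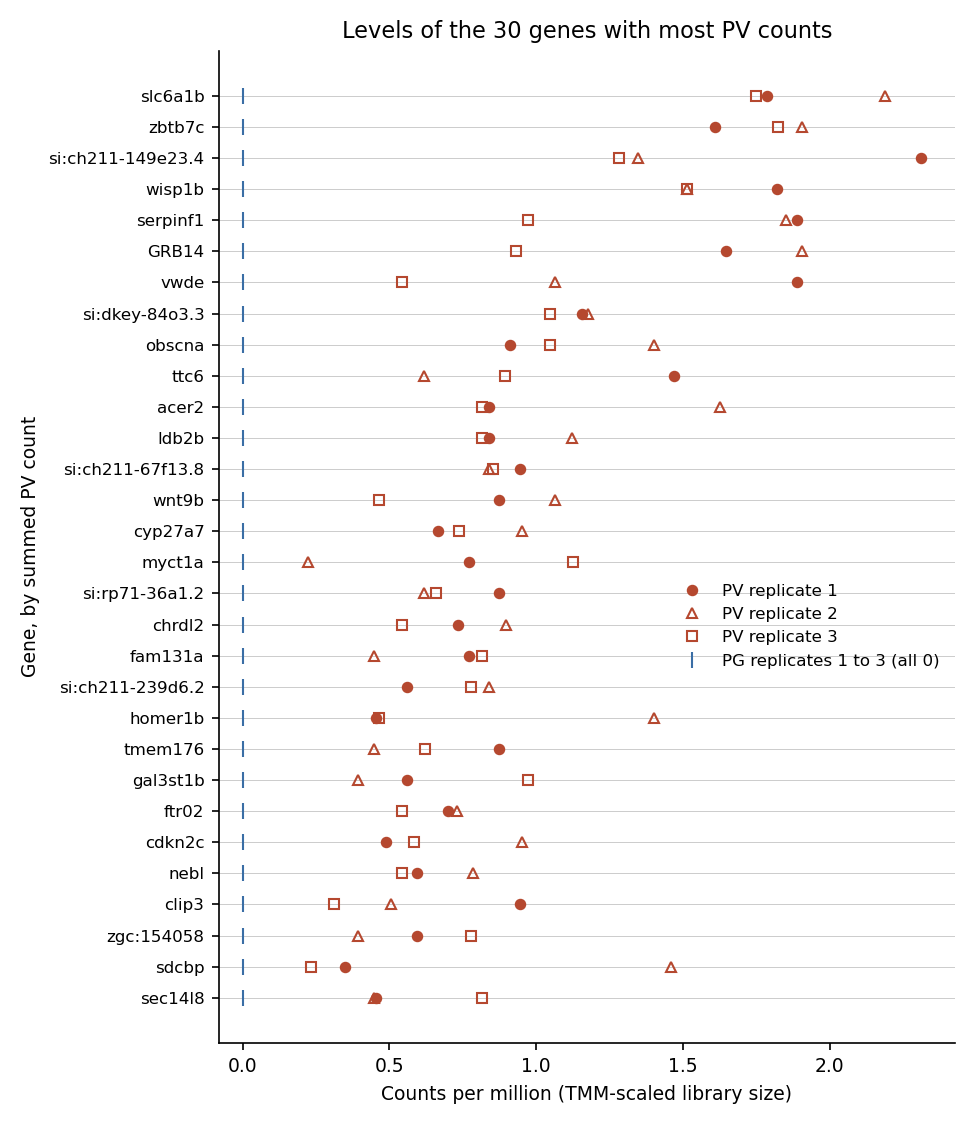
TMM-scaled CPM in each PV library (circle, triangle and square for replicates 1, 2 and 3) and in the PG libraries (ticks, all at 0) for the 30 genes with the most PV counts, ordered by summed PV count. The top gene, slc6a1b, averages 1.91 CPM in PV follicles, and sdcbp and myct1a show the PV libraries wide apart.

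Over the 218 genes with more than 3 PV counts in all, the lower bound of the PV level over the PG floor had a median of 6.41-fold. It was at least 2-fold for 208 genes, at least 5-fold for 137 and at least 10-fold for 57. Error in the PV counts is not in these bounds, which are weakest for the genes with the fewest counts. No fold is given for the other 14 genes, which had exactly 1 count in each PV library. With libraries scaled by their total counts alone, every bound was 1.333 times as high.

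By name, 143 of the 232 genes had a gene symbol, 58 had only a clone or project name and 31 had no name in the tables used. Those with a gene symbol had a median of 22 PV counts, those with a clone or project name 21, and those with no name 5. Of the 14 genes with 1 count per PV library, 1 had a name, si:dkey-156k2.7. By background knowledge of the symbols 96 genes were sorted into 9 role groups, and 136 stayed unsorted. The median sums of these groups ranged from 14 to 32 PV counts, beside 19 for all 232 genes.

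**Figure D3:**
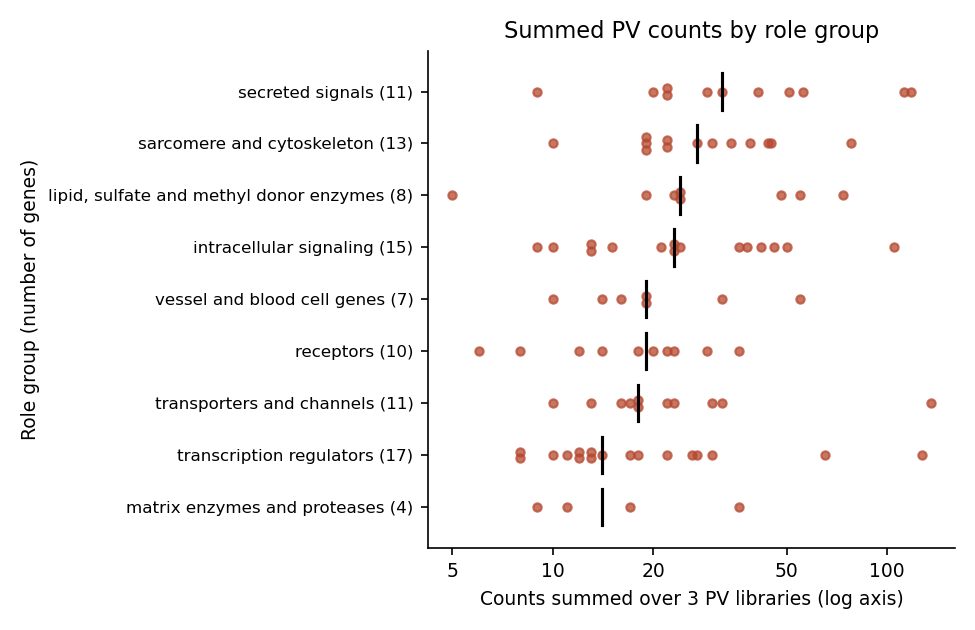
Counts summed over the 3 PV libraries (log axis) for 96 genes in 9 role groups, with the number of genes of each group in parentheses. Each point is 1 gene and the vertical bar is the median of its group, which ranges from 14 for matrix enzymes and proteases and for transcription regulators to 32 for secreted signals.

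Secreted signals were 11 of the genes, with a median of 32 PV counts. Ligands and antagonists of the Wnt pathway, which directs cell fate and growth in many tissues, were among them. The ligand gene wnt9b had 25, 19 and 12 PV counts, at least 17.9-fold above the PG floor, and wnt11r had 12, 7 and 3. A secreted Frizzled-related antagonist, sfrp1b, had 18, 12 and 11 PV counts, at least 13.1-fold above it. All 3 Wnt pathway genes were lowest in PV replicate 3 by raw count. The gene chrdl2, for a chordin-like protein that binds bone morphogenetic proteins (BMPs), had 21, 16 and 14 PV counts. A second CCN gene, cyr61l2, had 16, 6 and 10. The peptide ligand gene apela, whose product acts through apelin receptors in zebrafish embryos, had 17, 5 and 7. At the low end of the group stood the peptide YY gene pyya with 8, 7 and 7, angptl2b with 14, 4 and 2, and the neuropeptide B gene npb with 3, 2 and 4.

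Receptors were 10 of the genes, with a median of 19 PV counts. The prolactin receptor gene prlrb had 10, 13 and 13 PV counts (0.528 ± 0.19 CPM, at least 11.5-fold above the PG floor). PAQR9, of the progestin and adipoQ receptor family, had 10, 10 and 9. For prlrb PV replicate 1 was the lowest in CPM. The kappa opioid receptor gene oprk1 had 6, 5 and 11, PTGER2, for a prostaglandin E receptor, had 3, 5 and 6, and ERBB4, for a receptor tyrosine kinase that binds neuregulins, had 7, 8 and 3. The retinal G protein-coupled receptor gene rgra had 5, 14 and 4 PV counts, mostly from PV replicate 2. The glutamate receptor subunit gene GRIN2C had 12 in all. The odorant receptor symbols or42c2, or64a1 and or80a6 had 20, 8 and 6 PV counts in all, and such genes belong to a large family of similar sequences among which reads may be shared.

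Transporters and channels were 11 of the genes, with a median of 18 PV counts. After slc6a1b the highest sums were 32 for KCNT1, a sodium-activated potassium channel gene with 9, 9 and 14 PV counts, and 30 for slc6a6a, a taurine transporter gene with 13, 9 and 8. SLC6A17, the third SLC6 gene, had 11, 4 and 2. The further potassium channel genes KCNJ1, KCNH5 and KCNG2 had 18, 16 and 13 PV counts in all. The other solute carriers were slc24a2, slc25a6, SLC26A1 and SLC23A1, with 10 to 23 counts. Apart from slc6a1b, these 11 genes lay between 10 and 32 PV counts.

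Enzymes of lipid, sulfate and methyl-donor metabolism were 8 of the genes, with a median of 24 PV counts. After acer2 came cyp27a7, of the sterol hydroxylase family, with 19, 17 and 19 PV counts (0.785 ± 0.15 CPM, at least 17.6-fold above the PG floor). Its 3 PV libraries were close together. The glycolipid sulfotransferase gene gal3st1b had 16, 7 and 25. The fatty aldehyde dehydrogenase gene aldh3a2b had 10, 8 and 6, the lipase gene lipib 4, 10 and 10, and mat1a, for a methionine adenosyltransferase, 13, 7 and 3. The cytosolic sulfotransferases sult1st5 and sult1st6 had 19 and 5 PV counts in all, and these similar genes may share reads. Matrix enzymes and proteases were 4 of the genes. They were mmp28, a matrix metalloprotease gene, with 16, 7 and 13 PV counts, LOXL1, for an enzyme that cross-links elastin, with 3, 4 and 10, PLAU, the urokinase gene, with 3, 6 and 2, and F7, for a coagulation factor, with 4, 3 and 2.

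Genes of the sarcomere and cytoskeleton were 13 in number, with a median of 27 PV counts. Beside obscna, the nebulin relative nebl had 17, 14 and 14 PV counts (0.641 ± 0.127 CPM, at least 14.4-fold above the PG floor), cmya5 had 10, 7 and 10, and tmod1, for a protein that caps actin filaments, had 4, 2 and 4. The ryanodine receptor gene ryr1a, for a calcium release channel of muscle, had 4, 15 and 3, so that PV replicate 2 held most of its counts. Microtubule genes were clip3 with 27, 9 and 8, camsap2a with 8, 15 and 16 and dctn1b, for a dynactin subunit, with 8, 5 and 6. Others of this group, sept8b, twf2b, limk1b and gas2l2, had 19 to 34 PV counts in all.

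Transcription regulators formed the largest group, with 17 genes, and after zbtb7c and ldb2b they were sparse, with 8 to 30 PV counts. The gene runx1, for a regulator of blood cell formation, had 14, 7 and 9 PV counts (0.411 ± 0.072 CPM, at least 9.61-fold above the PG floor). Homeobox genes included hoxc12a with 12, 5 and 10, dlx5a with 13, 6 and 7, PHOX2A with 7, 3 and 4, hoxa9a with 6, 3 and 4, HOXB5 with 2, 4 and 4 and ved with 2, 4 and 2. EYA1, for a transcriptional coactivator, had 4, 4 and 4. The cell cycle repressor E2F7 had 6 in each PV library, and foxj1b, for a regulator of motile cilia, had 6, 3 and 4. Others were scrt1b, tox2, foxi2 and nfatc2b, with 8 to 22 PV counts in all.

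Genes known from vessels or blood cells were 7, with a median of 19 PV counts. After myct1a, an endothelial gene in mouse, the NK-lysin gene nkl.4, for an antimicrobial peptide of lymphocytes, had 9, 4 and 19 PV counts. MATK, a kinase of blood cells, had 10, 4 and 5, fcer1g, for an immune receptor signaling chain, had 8, 4 and 7, and rgs18, known from platelets in mammals, had 4, 6 and 6. The hyaluronan receptor gene lyve1a, of a family known from lymphatic vessels, had 5, 6 and 3. The other gene of its pair, lyve1b, had 0 counts in every PV and PG library. The leukocyte integrin gene itgb7 had 10 in all.

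Intracellular signaling genes were 15, with a median of 23 PV counts. After GRB14 came the scaffold gene homer1b with 13, 25 and 12, cdkn2c, for an inhibitor of cyclin-dependent kinases, with 14, 17 and 15, and sdcbp, for the scaffold protein syntenin, with 10, 26 and 6. The lower bounds of homer1b and sdcbp were 16.0-fold and 13.5-fold, and they dropped to 10.6-fold and 6.81-fold without PV replicate 2. The kinase gene rps6ka5 had 10, 7 and 21 PV counts and ARHGAP18, for a GTPase-activating protein, 15, 6 and 15. The other 9 genes, cblc, cdk5r1a, rac3a, ppm1e, PDE8B, DUSP19, PRICKLE1, GNG11 and GNG3, had 9 to 24 counts in all.

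Relatives of these genes in the same families were read from a fit over the whole table with edgeR's quasi-likelihood test and Benjamini-Hochberg adjustment. Calls needed an adjusted p no greater than 0.05 and a log2 fold change (PV over PG) no smaller than 1 in size. This fit called 13.2% of 15899 genes higher in PV libraries and 5.97% lower, and over all of them the log2 fold change had a median of 0.03. The counts below leave out the genes described above. Of 7 other Wnt ligands tested, wnt4a was called higher and WNT5B lower. In wnt4a there were 121, 65 and 102 counts in PV follicles and 19, 9 and 0 in PG follicles (log2 fold change 3.35, SE 0.47, adjusted p = 0.00013). Of 2 other CCN genes tested, ctgfa, for connective tissue growth factor, was called higher (log2 fold change 2.58, SE 0.24, adjusted p = 6.66e-06). Of 6 other chordin, noggin, gremlin and follistatin relatives tested, chd and fstl3 were called higher, as was fsta. With 0 PG counts fsta met the count rule and was left out by name, so nothing is read from its call.

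In the SLC6 transporter family, 3 of 10 others tested were called higher and 1 lower. The serotonin transporter gene slc6a4a had 271, 152 and 167 counts in PV follicles and 32, 14 and 4 in PG follicles (log2 fold change 3.54, SE 0.30, adjusted p = 4.02e-06). The dopamine transporter gene slc6a3 was lower in PV follicles (log2 fold change -1.85, SE 0.28, adjusted p = 0.000247). Members of 1 family therefore lay on both sides. Both other Runx genes tested were called higher, runx3 with a log2 fold change of 2.52 and runx2b with 1.71, and so was dlx2b of 2 other Dlx genes tested, with 1.79. Of 12 other Hox genes tested none was called higher and hoxc11b was lower (-1.07). The growth hormone receptor gene ghrb was called higher with a log2 fold change of 1.06, as was the nociceptin receptor gene oprl1 with 2.07. Of 13 other matrix metalloprotease genes tested, 5 were called higher, among them mmp2 with a log2 fold change of 2.72, and mmp25a was lower (-3.15). The apelin ligand gene apln was called higher (2.16) and the receptor gene aplnr2 lower (-1.29), homer3 was higher (1.18) and homer2 lower (-1.17). With libraries scaled by totals alone, which moved the median of all genes up by 0.42, WNT5B, hoxc11b, aplnr2 and homer2 were no longer called lower. Of the 12 alternative fits, WNT5B lost its call in 8, apln in 5, hoxc11b in 3 and chd and ghrb in 2 each, among them fits without PV replicate 1, 2 or 3 or PG replicate 1, 2 or 3.

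The closest comparison is with the gene of the same symbol or of the other letter in a duplicated pair. With 2 genes left out for having more than 2 such partners, 43 of the 232 genes had a partner in the table, 45 partners in all. Of these, 36 had PG counts, 9 had none, and 7 had no count in any library. The partner had more PG counts than the newly detected gene had PV counts in 25 cases. Of 25 partners tested, 5 were called higher in PV follicles (beside 13.2% of all genes), none lower and 20 in neither direction, with a median log2 fold change of 0.30 beside 0.03 for all genes.

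Abundant partners were counted in both stages. The partner of sept8b, SEPTIN8, had 3782, 2282 and 3250 counts in PV follicles and 4641, 3616 and 1716 in PG follicles (log2 fold change -0.15), while sept8b had 34 PV counts. The ERBB4 relative erbb4b had 489, 310 and 481 counts in PV follicles and 606, 457 and 216 in PG follicles (log2 fold change -0.04, SE 0.08, adjusted p = 0.655). LDB2 had 139, 96 and 159 counts in PV follicles and 194, 157 and 58 in PG follicles, and SFRP1 had 231, 106 and 201 in PV follicles and 178, 153 and 71 in PG follicles. Neither passed the test. The partner of ryr1a, RYR1, had 390, 239 and 344 counts in PV follicles and 796, 672 and 326 in PG follicles (log2 fold change -0.95, SE 0.07, adjusted p = 1.5e-06), which was below the fold threshold.

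The 5 partners called higher were schip1 (log2 fold change 2.40), the second ZC3H12A gene (2.32), rac3b (2.11), tspan9b (2.05) and rims2b (1.08). The clearest was schip1, with 131, 51 and 72 counts in PV follicles and 17, 22 and 6 in PG follicles (SE 0.34, adjusted p = 0.000162). For each of the 5 every PV library lay above every PG library in CPM. The call itself favors this and its share over all genes was not computed, so nothing is read from it. The number called higher was 3 without PV replicate 2, PV replicate 3 or PG replicate 1, and schip1 and ZC3H12A kept their calls in all 12 alternative fits. For obscna the partner was nearly absent, as obscnb had 2, 2 and 0 PV counts and 0, 4 and 0 PG counts. Where the copies of a pair are similar in sequence, the division of reads between them is uncertain.

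**Figure D4:**
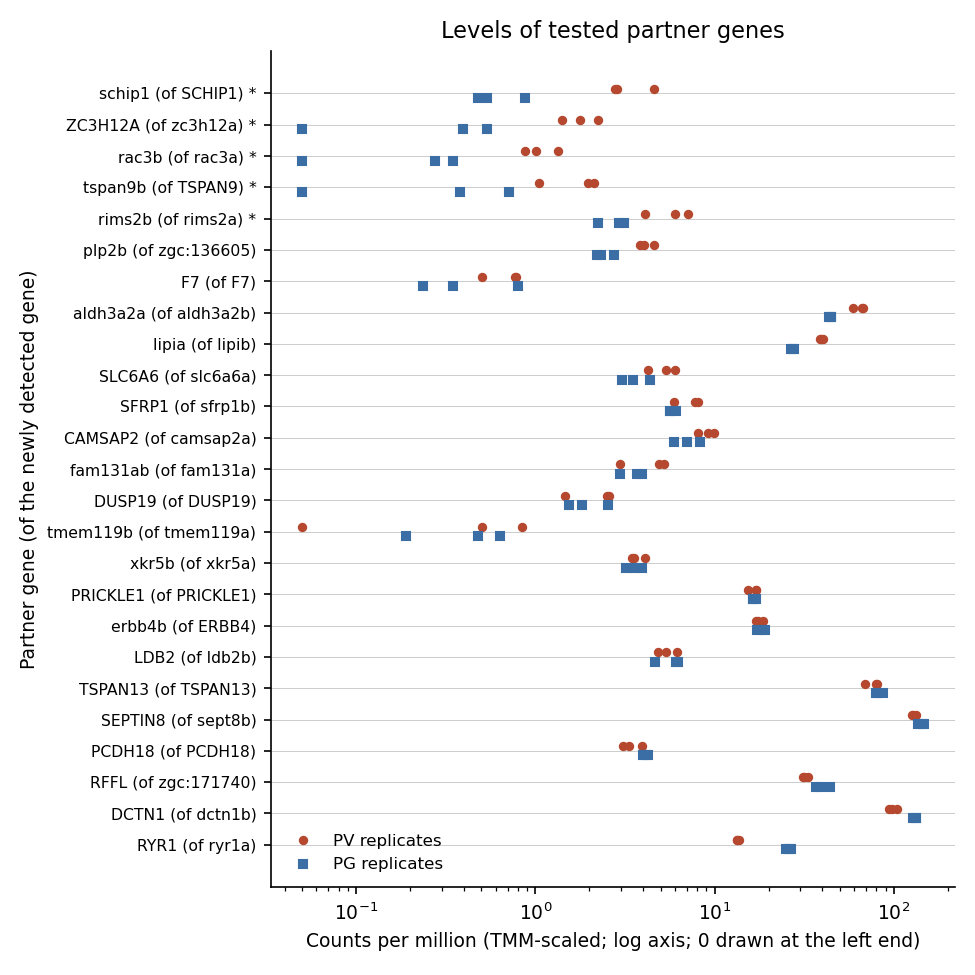
TMM-scaled CPM (log axis) in PV libraries (circles) and PG libraries (squares) for the 25 tested partner genes, with the newly detected gene in parentheses and asterisks on the 5 partners called higher in PV follicles. Values of 0 are drawn at the left end, and abundant partners such as SEPTIN8, DCTN1 and erbb4b appear in both stages.

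Genes of cell types were set beside the 232 genes, in lists chosen with earlier results of these data known. Some of the 232 genes were put on 2 of the lists by name. Which lists hold any of them is therefore not a result. The 7 granulosa genes matched (fshr, amh, cyp19a1a, inha, inhbaa, gsdf and hsd17b1) were all called higher in PV follicles, with a median log2 fold change of 3.94, and none is among the 232 genes, since all had at least 1 PG library with counts. Their summed level was 77.6 to 93.2 CPM in PV libraries and 4.08 to 7.02 CPM in PG libraries. The 3 smooth muscle genes matched, acta2, myh11a and tagln, were also called higher, with summed levels of 21.3 to 24.8 CPM in PV libraries and 1.52 to 5.75 CPM in PG libraries. PG replicate 3 was the lowest for both lists. Of 5 stromal genes tested, 4 were called higher (col1a1b, col1a2, dcn and pdgfra), with summed levels of 47.0 to 49.9 CPM in PV libraries and 14.5 to 24.9 CPM in PG libraries. These somatic lists were higher in PV libraries. The 232 genes are so by the rule that chose them, so nothing is read from the shared direction. The paper had already reported fshr, amh, cyp19a1a, inha and inhbaa as up-regulated in these data. The granulosa calls are therefore not independent of that report. The part of somatic cells in the result was not tested.

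Other lists did not move together. Of 6 endothelial genes tested, 4 were called higher (kdr, cdh5, fli1a and tie1), flt4 was called lower and kdrl was not called. The summed level was 28.3 to 31.8 CPM in PV libraries and 27.2 to 35.3 CPM in PG libraries. Most of the PG level came from flt4, with 19.2 to 22.3 CPM there and 7.52 to 8.19 CPM in PV libraries. Its log2 fold change was -1.40, whereas those of the others tested ran from 0.49 (kdrl) to 1.77 (fli1a). The overlap of the sums therefore does not describe the other genes. The calls of kdr, fli1a and tie1 were each lost in 6 of 12 alternative fits, and without PV replicate 3 cdh5 was the 1 gene still called higher. With scaling by totals flt4 was not called. Of 2 theca and steroidogenic genes tested, hsd3b1 was called higher (log2 fold change 3.77). The other, CYP17A1, was lower in PV follicles (-0.91, SE 0.04, adjusted p = 5.52e-08) but below the fold threshold, so it was not called. Of 4 erythrocyte genes tested, hbaa1 and hbba1 were called lower, though not with scaling by totals, and the summed level was 7.14 to 18.6 CPM in PV libraries and 27.6 to 37.6 CPM in PG libraries. Of 7 leukocyte genes tested none was called in either direction, with summed levels of 10.5 to 11.5 CPM in PV libraries and 11.4 to 14.1 CPM in PG libraries. On this list 1 of the newly detected genes, nkl.4, had been placed by name, while ptprc had 11, 11 and 8 counts in PV follicles and 6, 18 and 4 in PG follicles.

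On the striated muscle list 4 newly detected genes, obscna, nebl, cmya5 and ryr1a, had been placed by name. Of 10 genes on the list, 7 were matched. The contractile and energy genes among them, actc1b, ckma and myhz2, were at low levels in both stages. The 4 newly detected genes were also low in PV follicles. Summed PV counts were 78 for obscna, 45 for nebl, 27 for cmya5 and 22 for ryr1a. For actc1b, ckma and myhz2 they were 84, 48 and 5. RYR1, the partner of ryr1a, was not among those matched and had more counts. It had 390, 239 and 344 counts in PV follicles and 796, 672 and 326 in PG follicles. The cardiac actin gene actc1b had 36, 13 and 35 counts in PV follicles and 34, 51 and 20 in PG follicles and was not called. The muscle creatine kinase gene ckma had 21, 4 and 23 counts in PV follicles and 54, 41 and 13 in PG follicles. It was called lower (log2 fold change -1.21, SE 0.48, adjusted p = 0.0475), a call lost in 8 of 12 alternative fits, DESeq2 and scaling by totals among them. The fast myosin gene myhz2 had 0, 0 and 5 counts in PV follicles and 2, 3 and 0 in PG follicles. The neural genes matched, ELAVL3 and SNCG, had no PG counts, and only SNCG had PV counts, 6 in PV replicate 3.

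Oocyte genes were abundant in all libraries, with summed levels of 3040 to 3219 CPM in PV libraries and 6346 to 6644 CPM in PG libraries. Most of this level came from zp3b and buc, with 1447 and 1087 CPM in PV replicate 1 and 3432 and 2238 CPM in PG replicate 1. Of 7 oocyte genes tested, zp3b and buc were called lower and none higher. The other 5, DDX4, DAZL, GDF9, bmp15 and figla, were not called, with log2 fold changes from -0.69 to 0.29. Over the list the median log2 fold change was -0.16. Of 5 epithelial genes tested, epcam was called lower. Neither call on the oocyte genes nor that on epcam was made with scaling by totals. The liver list, which includes the vitellogenin gene vtg1, set PV replicate 3 apart, with 208, 330 and 9.24 CPM in PV replicates 1 to 3 and 220 to 292 CPM in PG libraries. The number of genes meeting the rule was 362 without PV replicate 3, 337 without PV replicate 1 and 430 without PV replicate 2. Leaving out any PV library makes the rule easier to meet.

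**Figure D5:**
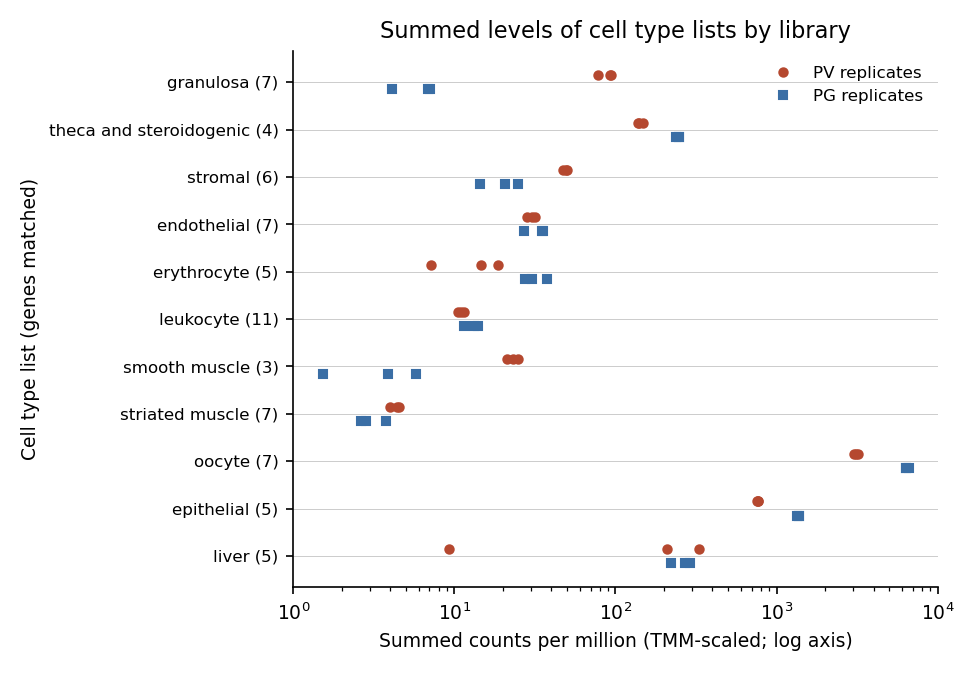
Summed TMM-scaled CPM (log axis) of cell type lists in each PV library (circles) and each PG library (squares), with the number of genes matched in parentheses. The granulosa, smooth muscle and stromal lists lie higher in PV libraries, and PV replicate 3 lies apart in the liver list. The endothelial list, in PG libraries mostly flt4, overlaps between the stages.

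Genes just outside the rule were also inspected. With 1 PG count in all and counts in every PV library there were 32 genes, led by si:dkey-50i6.5 with 10, 4 and 11 PV counts, ENSDARG00000080718 with 6, 5 and 8, zgc:136308 with 4, 4 and 8, 5S_rRNA with 7, 2 and 3 and znf1142 with 3, 2 and 5. With 2 PG counts there were 101 genes. Some of these had far more PV counts than any gene inside the rule, and those named from here on were chosen after their values were seen. The integrin gene itga6a had 247, 117 and 123 counts in PV follicles and 2, 0 and 0 in PG follicles, and SLC26A6, an anion exchanger gene, had 84, 31 and 53 in PV follicles and 2, 0 and 0 in PG follicles. In paired-end libraries 1 fragment can give 2 counts. Genes at 2 counts outnumbered those at 1 count most in PG replicate 3 (575 and 285), and less in PG replicates 1 (554 and 340) and 2 (559 and 472). They also did so in PV replicates 2 (693 and 441) and 3 (606 and 467), but not in PV replicate 1 (511 and 516). Among genes missed for a single PV library, si:ch211-170h2.5 had 44, 0 and 32 PV counts and mhc1zca had 0, 23 and 29.

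In the fit over all genes, 36 of the 232 genes passed edgeR's expression filter and 196 did not. All 36 were called higher, beside 13.2% of all genes tested. Without the filter the number was 137, beside 9.5% of 23059 genes, and adding a block for replicate number to that fit gave 49, beside 8.39%. The rule chose the genes on this same contrast, so these counts are a description and nothing is read from them. Of the 232 genes, 122 were matched to RefSeq annotation of the GRCz12tu assembly, by gene identifier or, failing that, by symbol or synonym. Of these, 120 were protein-coding genes and 2 long non-coding RNAs, and 1 pair, zgc:154058 and mat1a, were neighbours in its gene order. The labels and the methods name different library kits, and strand-specific counting is not stated, so reads of overlapping or antisense genes cannot be separated.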

How the data were processed

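RNA-seq was carried out on 6 libraries, 3 of PV and 3 of PG follicles. The authors aligned reads to GRCz10 with TopHat2 and counted with StringTie and prepDE, a script that turns coverage into read numbers, and they deposited raw counts per Ensembl gene. The second deposited table holds a signal, the same counts divided by 1 DESeq2 size factor per library (0.554 to 1.42), and served only to check the raw counts. FastQC 0.11.5 is named in the submitters' processing notes.

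Stage was taken from the labels. Genes were selected on raw counts (minimum 1 count per PV library, 0 in PG libraries), and the genes, role groups, families and cell type lists were chosen with earlier results of these data known. Symbols came from the study's supplementary gene table (112 genes) and, failing that, a gene name table (89 genes). Named genes were the 30 with the most PV counts, those in a role group, family or cell type list, and the 5 nearest the limit, except for a few that are not reported here.

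The test was edgeR's quasi-likelihood test (edgeR 4.0.16, limma 3.58.1, R 4.3.3) with TMM and filterByExpr (minimum count 10, minimum total 15), checked on simulated counts. Thresholds were an adjusted p of 0.05 and a log2 fold change of 1. SE is the log2 fold change divided by the square root of the F statistic. Lower bounds use a floor of 3 counts summed over PG libraries and take the PV counts as observed, without their error. They do not allow for the selection of the genes on 0 PG counts. Alternatives were DESeq2 1.42.0, other scalings, no filter, a replicate block, other detection rules and leaving out each library. Tables and figures were made with pandas 2.3.3, numpy 2.4.6 and matplotlib 3.10.9. Totals ran from 14492086 to 36603108 counts per library, so 3 counts are 8.2e-06% to 2.07e-05% of a library. According to the methods the replicates were separate pools of fish, and each pool gave both stages.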

Additional observations from a re-analysis of the deposited data

How the results depend on the processing

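The number of genes meeting the rule depended on how it was drawn. It was 232 as described, 205 with at least 2 counts in each PV library, 89 with at least 5, 264 with up to 1 PG count in all, 665 with counts in any 2 of the 3 PV libraries, and between 267 (without PG replicate 3) and 549 (without PG replicate 1) when 1 library was left out. The number of these genes called higher was 36 with the expression filter (beside 13.2% of all genes tested) and 137 without it (beside 9.5%). It was 147 with DESeq2 (31 had no adjusted p there), and 47 to 77 when 1 library was left out, where the filter passed more of them. The rule chose the genes on this same contrast, so nothing is read from these numbers. Over all genes, 2105 were called higher, 2190 without the filter, 2197 with DESeq2, 3664 with scaling by library totals, and 1930 to 2214 when 1 library was left out. Both stages came from the same 3 groups of fish, but library numbers were not shown to pair them: over 12300 genes the deviations of same-numbered libraries correlated at -0.00611 to 0.0561, and those of different numbers at -0.0505 to 0.0445. With the replicate number as a block 1983 genes and 36 of the 232 were called higher, and with the block and no filter, chosen after seeing the data, 1934 and 49. Of 57 relatives, cell type genes and partners called higher or lower, 35 kept their call in all 12 alternative fits and 7 lost it with scaling by library totals only. Ranking by counts per length and a search of promoters for motifs were not run, as neither lengths nor promoter sequences were used here. Depth limits the result: 30 of the 232 genes had at least 10 counts in each PV library.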
